A study of Rattus norvegicus with 19 samples.

Results

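Among the genes of the rat left ventricle, 8 that make cholesterol or answer to it were followed over 19 arrays: Lss, Insig1, Fdft1, Sqle, Idi1, Fdps, Dhcr7 and Hmgcs1. They were chosen by symbol. Lss and Insig1 were put on the list because they had risen in vehicle-treated rats against baseline rats on these same arrays, and the other 6 were added to ask whether they follow. Of the 8 genes, 7 were measured, by 10 probe sets, among 14217 genes measured in all; Hmgcs1 is not analysed here. On the probe set used, Fdft1 was the 1 other member to stand higher in vehicle than in baseline rats on every array. So did 3.75% of all genes. The difference was 0.72 on the log2 scale (SE 0.26), but with limma's adjusted p at 0.383. On a second Fdft1 probe set the 2 groups overlapped, with a difference of 0.37. Fdft1 correlated with Insig1 from rat to rat after the arrays were made equal in distribution (r = 0.85), a call that 2 other scalings lost. Sqle, Idi1 and Fdps were lower in vehicle than in baseline by group mean, Dhcr7 was 0.04 higher, and none of the 4 passed the test.

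The hearts came from male Dahl salt-sensitive rats (Harlan SS/Hsd), a strain in which dietary salt raises blood pressure and the left ventricle thickens. From 6 weeks of age every rat was fed 6% NaCl, so no group on ordinary food enters these comparisons. The baseline rats were untreated and were taken at 11 weeks of age, after 5 weeks of salt. The other groups stayed on salt for 4 more weeks, to 15 weeks of age. Vehicle rats were injected with the drug's solvent, 95% propylene glycol and 5% ethyl alcohol. Paricalcitol rats received 200 ng of that vitamin D receptor activator 3 times a week. Enalapril rats received that angiotensin-converting enzyme inhibitor at 90 ug a day from an implanted osmotic pump, together with vehicle injections, and combination rats received the pump and paricalcitol. The design text describes the enalapril dose as one that left blood pressure without a significant fall. Each group had 4 arrays, except 3 for enalapril. Vehicle and baseline rats differ in age and in weeks of salt as well as in injection, and the sample descriptions number each group's rats in a run of their own, so a difference between groups and one between cohorts cannot be told apart. The labels do not say outright that each array was a separate animal, so p-values measure the spread between these arrays.

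Cells build cholesterol from acetyl-CoA through the mevalonate pathway. When membrane sterol falls, the transcription factor SREBP-2 is carried to the Golgi by SCAP, is cut there, and turns on the enzymes of the whole pathway together. INSIG proteins hold SCAP back in the endoplasmic reticulum when sterol is plentiful, and Insig1 is itself a target of SREBP, which makes it a common readout of this circuit. In a textbook response to low sterol the enzymes below would be higher as a group. The adult heart makes sterol at a low rate and takes up much of its cholesterol from lipoproteins.

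SREBP binds weakly alone and works beside the factors NF-Y and Sp1. The promoters of 4 members are shown to compare their letters for these factors between the 2 genes that led the list and 2 that were lower in vehicle. RefSeq start sites on GRCr8 were used, from 250 bases before to 50 bases after the start. Capitals mark every match to CCAAT, the NF-Y box, or GGGCGG, the Sp1 box, on either strand (read as ATTGG or CCGCCC where the match lies on the opposite strand); no matches of different motifs overlapped in these 4. Lss lies at chr20:12118181-12118480, Insig1 at chr4:8057720-8058019, Idi1 at chr17:66547475-66547774 and Fdps at chr2:176804767-176805066, all on the minus strand.
Lss: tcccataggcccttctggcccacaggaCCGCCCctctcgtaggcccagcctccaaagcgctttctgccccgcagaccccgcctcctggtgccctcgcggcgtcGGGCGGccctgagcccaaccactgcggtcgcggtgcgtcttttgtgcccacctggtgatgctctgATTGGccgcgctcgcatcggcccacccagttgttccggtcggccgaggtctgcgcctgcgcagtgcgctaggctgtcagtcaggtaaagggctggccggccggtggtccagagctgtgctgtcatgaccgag
Insig1: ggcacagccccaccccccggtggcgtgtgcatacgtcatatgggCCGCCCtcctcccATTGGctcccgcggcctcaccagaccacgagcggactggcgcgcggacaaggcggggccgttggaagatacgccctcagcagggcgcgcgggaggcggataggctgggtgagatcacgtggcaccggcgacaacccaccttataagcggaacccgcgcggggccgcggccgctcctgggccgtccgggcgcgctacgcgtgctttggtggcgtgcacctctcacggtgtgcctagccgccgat
Idi1: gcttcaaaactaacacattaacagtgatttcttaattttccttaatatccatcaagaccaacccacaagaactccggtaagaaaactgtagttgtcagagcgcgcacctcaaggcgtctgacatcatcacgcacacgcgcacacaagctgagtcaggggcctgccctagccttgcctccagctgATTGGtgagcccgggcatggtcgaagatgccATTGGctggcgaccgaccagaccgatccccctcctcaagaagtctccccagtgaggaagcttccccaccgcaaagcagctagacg
Fdps: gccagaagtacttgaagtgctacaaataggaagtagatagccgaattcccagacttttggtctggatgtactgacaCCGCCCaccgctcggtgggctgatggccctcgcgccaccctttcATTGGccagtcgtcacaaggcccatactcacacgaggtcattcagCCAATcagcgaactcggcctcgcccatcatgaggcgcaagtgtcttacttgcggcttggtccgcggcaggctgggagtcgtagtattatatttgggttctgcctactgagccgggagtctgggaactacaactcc

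Lss and Insig1, and also Idi1 and Fdps, carry an NF-Y box in this window. The Sp1 box occurs in 2 places in Lss, 1 in Insig1, 1 in Fdps and 0 in Idi1. Of the 8 members, 6 had a promoter entry (Hmgcs1 among them, Sqle and Fdft1 not), and 5 of those 6 held CCAAT, against 37.5% of 33469 rat promoters of the same length. GGGCGG was in 5 of 6, against 33.1% of promoters. In the wider sterol pathway list described below, 15 of 21 genes with an entry held CCAAT and 17 of 21 held GGGCGG. A classic sterol regulatory element, TCACNCCAC, was in 0 of the 6 members and 0 of the 21 list genes, against 1.12% of promoters. These are counts of letters in a short window and say nothing of whether a factor bound.

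Levels below are log2(value + 16) after the arrays were made equal in distribution, where 4 is the floor given to values at or below 0, and they compare groups for 1 gene, never 1 gene with another. Array medians of the deposited intensities ran from 43.6 to 72.6, and from 16% to 18.2% of values on an array were below 0. Baseline medians (55.5 to 72.6) were above vehicle medians (43.6 to 55.5), and results that turn on this offset are given below. Cardiomyocyte markers (6 of 7 measured, among them Myh6 and Myh7) were bright on every array, with list means from 13.37 to 13.85. Each difference is the first group's mean less the second's, with the standard error (SE) of the limma fit, and a gene was called at a Benjamini-Hochberg adjusted p under 0.05 over all 14217 genes. In vehicle against baseline 0.0844% of all genes were called. That share was 0.0141% in paricalcitol against vehicle, 0% in enalapril against vehicle and 0.00703% in combination against vehicle. In whole tissue, fewer cells of a type and less RNA per cell cannot be told apart.

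**Figure D1:**
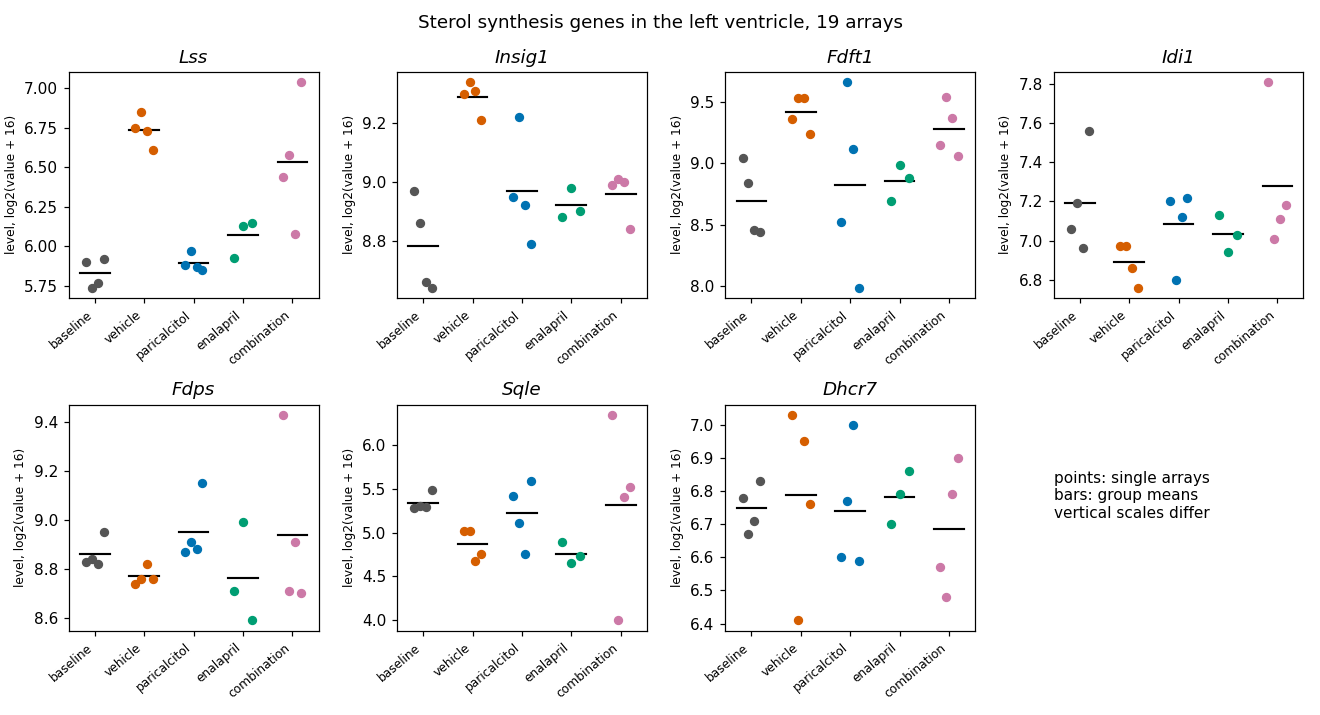
Levels of the 7 measured genes on each of the 19 arrays, as log2(value + 16), by group; points are single arrays, bars are group means, and the vertical scales differ. The 4 vehicle arrays of Lss (6.61 to 6.85) lie above all baseline, paricalcitol and enalapril arrays. On the probe set shown, Fdft1 has the same order of group means as Lss. Its paricalcitol rats lie on both sides of vehicle (7.99 to 9.66). Sqle and Idi1 are lower in vehicle than in baseline by group mean.

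Lss (probe set 1372973_at) encodes lanosterol synthase, which folds squalene epoxide into the first sterol ring. In baseline rats its levels were 5.90, 5.74, 5.77 and 5.92, and in vehicle rats 6.75, 6.85, 6.73 and 6.61. Paricalcitol rats had 5.88, 5.97, 5.87 and 5.85, and enalapril rats 5.93, 6.13 and 6.15. Combination rats had 6.44, 6.58, 6.08 and 7.04. The vehicle arrays were therefore the high ones, both single-drug groups lay near baseline, and the combination group ran from just above baseline to beyond vehicle. Deposited intensity gave the same picture, with a mean of 46.0 ± 9.34 (SD, n = 4) in baseline, 81.7 ± 8.31 (SD, n = 4) in vehicle, 43.0 ± 5.69 (SD, n = 4) in paricalcitol, 54.3 ± 6.40 (SD, n = 3) in enalapril and 76.9 ± 28.3 (SD, n = 4) in combination rats.

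Because Lss was chosen by vehicle against baseline, its differences from either group are given without a test. Vehicle stood 0.90 above baseline (SE 0.15), a fold of 1.87. Lss was dim, from 5.74 to 7.04 where the median gene had a mean level of 7.07, and fold changes of dim genes are understated on this scale. The single drugs were lower than vehicle, with differences of -0.84 for paricalcitol and -0.67 for enalapril, and the combination differed from vehicle by -0.20 (SE 0.15). Without combination rat 4 that last difference was -0.37, and without combination rat 3 it was -0.05. A second Lss probe set (1368086_a_at) was at the floor on all 19 arrays (deposited values from -108.8 to -40.8) and gives no level; averaging it in reduced vehicle against baseline to 0.45. Among the drug groups, which played no part in choosing the gene, Lss was 0.64 higher in combination than in paricalcitol rats (SE 0.15, no overlap) with an adjusted p of 0.174 in limma. Its unadjusted p in limma was 0.000502, rank 39 among all genes, of which 290 were higher without overlap in that comparison. It was 0.47 higher in combination than in enalapril rats (SE 0.16, limma's adjusted p 0.908) and 0.18 higher in enalapril than in paricalcitol rats (SE 0.16, adjusted p 0.860). Across all genes, 0% were called in each of these 3 comparisons, though 730 genes were higher and 556 lower at an unadjusted p under 0.05 in combination against paricalcitol. Those counts were 430 and 324 in combination against enalapril and 533 and 566 in enalapril against paricalcitol.

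Insig1 (1367894_at) encodes the endoplasmic reticulum protein that retains the SCAP and SREBP pair when sterol is ample. Its levels were 8.97, 8.86, 8.66 and 8.64 in baseline rats and 9.30, 9.34, 9.31 and 9.21 in vehicle rats. They were 8.95, 9.22, 8.92 and 8.79 in paricalcitol rats, 8.88, 8.98 and 8.90 in enalapril rats, and 8.99, 9.01, 9.00 and 8.84 in combination rats. Vehicle was again the high group, and only paricalcitol rat 2 reached into its range. Without a test, vehicle was 0.51 above baseline (SE 0.08), a fold of 1.42, and the drug groups were below vehicle, with differences of -0.32 for paricalcitol, -0.37 for enalapril and -0.33 for the combination. The combination mean lay with those of the single drugs. It differed from paricalcitol by -0.01 (SE 0.08, limma's adjusted p 1, 95% interval -0.19 to 0.17) and from enalapril by 0.04 (SE 0.09, adjusted p 1, interval -0.15 to 0.23). Enalapril differed from paricalcitol by -0.05 (SE 0.09, adjusted p 0.962). With no equalisation between arrays the median difference of all genes was -0.20, the Insig1 difference from baseline to vehicle was 0.28, and the intensities overlapped (403 to 608 in baseline, 519 to 637 in vehicle).

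Marker lists of some other cell types lay on average higher or lower in vehicle than in baseline, with 0 genes of any marker list called by limma. All 4 genes of the hepatocyte list (4 of 4 measured) were higher, 3 of them at an unadjusted p under 0.05 (smallest limma adjusted p 0.265), and it had list means from 6.53 to 6.70 on vehicle arrays and from 6.01 to 6.35 on baseline arrays. Paricalcitol (6.26 to 6.40), enalapril (6.28 to 6.54) and combination arrays (5.96 to 6.40) were mostly below vehicle. Among its genes, Apoa1 was at the floor on 7 of 19 arrays and Alb, the albumin gene, ran from 4.77 to 6.43. The list for steroid-producing cells (3 of 3 measured), cells that draw heavily on cholesterol, ran from 5.91 to 6.03 in vehicle and from 5.46 to 5.74 in baseline; its adrenal marker Cyp11b1 was at the floor on 12 arrays. Vascular and stromal lists were lower. Smooth muscle and pericyte markers were lower for 5 of 5 genes (list means from 8.68 to 8.94 in vehicle and 8.86 to 9.34 in baseline, smallest limma adjusted p 0.177) and endothelial markers for 4 of 4 (9.15 to 9.33 and 9.33 to 9.70, adjusted p 0.205). Fibroblast markers were lower for 4 of 5 (10.77 to 11.16 and 11.18 to 11.70, adjusted p 0.440) and adipocyte markers for 5 of 6 (5.70 to 6.17 and 6.01 to 6.43, adjusted p 0.547). At an unadjusted p under 0.05 in limma, 2 genes each of the smooth muscle, endothelial and fibroblast lists were lower, and 0 of the adipocyte list. Over all 14217 genes, 590 were higher and 718 lower at that threshold. The part of these cell markers in the Lss and Insig1 levels was not tested.

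Fdft1 (1367839_at), squalene synthase, commits carbon to sterols by joining a pair of farnesyl units into squalene; Sqle acts on its product and Lss acts next. Baseline rats had levels of 9.04, 8.84, 8.46 and 8.44, and vehicle rats 9.36, 9.53, 9.53 and 9.24. Paricalcitol rats were spread widely, at 8.52, 9.66, 9.12 and 7.99. Enalapril rats had 8.69, 8.99 and 8.88, and combination rats 9.15, 9.54, 9.37 and 9.06. Vehicle and combination rats were the high groups, as for Lss, and every array of both lay above every baseline array. Vehicle exceeded baseline by 0.72 (SE 0.26, 95% interval 0.16 to 1.28), a fold of 1.65 with an unadjusted p of 0.0152 and limma's adjusted p of 0.383. Of all genes, 3.75% were higher in vehicle without overlap and 590 were higher at an unadjusted p under 0.05.

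The drugs set against vehicle gave Fdft1 differences of -0.59 for paricalcitol (SE 0.26, limma's adjusted p 0.480) and -0.56 for enalapril (SE 0.28, adjusted p 0.892). Enalapril lay below vehicle without overlap, as did 4.2% of all genes. The paricalcitol difference was -0.88 without paricalcitol rat 2 (limma's adjusted p 0.122) and -0.32 without rat 4 (adjusted p 0.731). The combination differed from vehicle by -0.14 (SE 0.26, limma's adjusted p 0.967) and from baseline by 0.59 (SE 0.26, adjusted p 0.455). It was 0.43 above enalapril without overlap (SE 0.28, limma's adjusted p 0.934) and 0.46 above paricalcitol (SE 0.26, adjusted p 0.642). Of all 14217 genes, 394 were higher without overlap in combination against enalapril, and 402 in combination against baseline. The second Fdft1 probe set (1389906_at) had a vehicle against baseline difference of 0.37 (SE 0.28, limma's adjusted p 0.777 over probe sets) with overlap, and an enalapril against vehicle difference of -0.55 without overlap. For paricalcitol against vehicle it gave -0.12 (SE 0.28, limma's adjusted p 0.999) and for combination against paricalcitol 0.00 (SE 0.28, adjusted p 1). Those were closer to 0 than on the first probe set.

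Idi1 (1368878_at) encodes isopentenyl diphosphate isomerase, which interconverts the small building blocks of the mevalonate pathway. Its levels were 7.06, 7.19, 6.96 and 7.56 in baseline, 6.97, 6.97, 6.86 and 6.76 in vehicle, and 7.20, 6.80, 7.12 and 7.22 in paricalcitol rats. Enalapril rats had 7.13, 6.94 and 7.03, and combination rats 7.81, 7.01, 7.11 and 7.18. Vehicle had the lowest group mean, where for Lss it had the highest, and overlapped baseline by a single baseline array. Vehicle against baseline was -0.30 (SE 0.16, 95% interval -0.65 to 0.04, limma's adjusted p 0.610). The combination was 0.39 above vehicle without overlap (SE 0.16, limma's adjusted p 0.607), in a comparison where 2.31% of all genes were higher without overlap. The second Idi1 probe set (1388872_at) gave -0.06 in vehicle against baseline and -0.01 in combination against vehicle, so the difference was seen on 1 of 2 probe sets. Without combination rat 1 the combination difference was 0.21. Vehicle against baseline was -0.18 without baseline rat 4 and -0.57 on deposited values.

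Fdps (1367667_at), farnesyl diphosphate synthase, builds the farnesyl unit used for sterols and for protein prenylation. Baseline rats had 8.83, 8.84, 8.82 and 8.95, vehicle rats 8.74, 8.76, 8.82 and 8.76, and paricalcitol rats 8.87, 8.91, 8.88 and 9.15. Enalapril rats had 8.71, 8.99 and 8.59, and combination rats 9.43, 8.71, 8.91 and 8.70. The groups lay within a narrow band, with combination rat 1 standing apart. Vehicle was below baseline by a small step without overlap, -0.09 (SE 0.13, 95% interval -0.37 to 0.19, limma's adjusted p 0.921). Of all genes, 4.02% were lower in vehicle without overlap. Paricalcitol was 0.19 above vehicle (SE 0.13, limma's adjusted p 0.688) without overlap, as were 2.5% of all genes, and the difference was 0.00 for enalapril (adjusted p 1) and 0.17 for the combination (adjusted p 0.821). The combination difference was 0.00 without combination rat 1, and the paricalcitol one 0.08 with arrays centred on their median.

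Sqle (1387017_at), squalene epoxidase, is a rate-limiting enzyme of the sterol branch and acts just before Lss. It was dim here, and fold changes of dim genes are understated on this scale. Levels were 5.28, 5.30, 5.29 and 5.49 in baseline, 5.02, 5.02, 4.67 and 4.75 in vehicle, and 5.42, 5.11, 4.76 and 5.59 in paricalcitol rats. Enalapril rats had 4.89, 4.65 and 4.73. Combination rats ran from the floor on rat 2 (deposited value -0.53) through 5.40 and 5.52 to 6.34 on rat 1 (74.2). Vehicle and enalapril were the low groups, each wholly below baseline, and the combination group spanned the range of all the others. Of all 14217 genes, 571 were lower without overlap in vehicle against baseline, and 659 in enalapril against baseline. Vehicle against baseline was -0.48 (SE 0.34, 95% interval -1.19 to 0.24, limma's adjusted p 0.717). The differences from vehicle were 0.36 for paricalcitol (adjusted p 0.796), -0.11 for enalapril (adjusted p 1) and 0.45 for the combination (adjusted p 0.800). The last was 0.11 without combination rat 1 and 0.89 without combination rat 2.

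Dhcr7 (1368189_at) makes cholesterol from 7-dehydrocholesterol in the last step of the pathway, and the same substrate is the skin's precursor of vitamin D. Its levels ran from 6.67 to 6.83 in baseline, 6.41 to 7.03 in vehicle, 6.59 to 7.0 in paricalcitol, 6.70 to 6.86 in enalapril and 6.48 to 6.90 in combination rats. All 5 groups overlapped. Vehicle against baseline was 0.04 (SE 0.13, 95% interval -0.25 to 0.32, limma's adjusted p 1), and differences from vehicle were -0.05, -0.01 and -0.10 for paricalcitol, enalapril and combination. The first 3 of these 4 signs turned on deposited values.

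**Figure D2:**
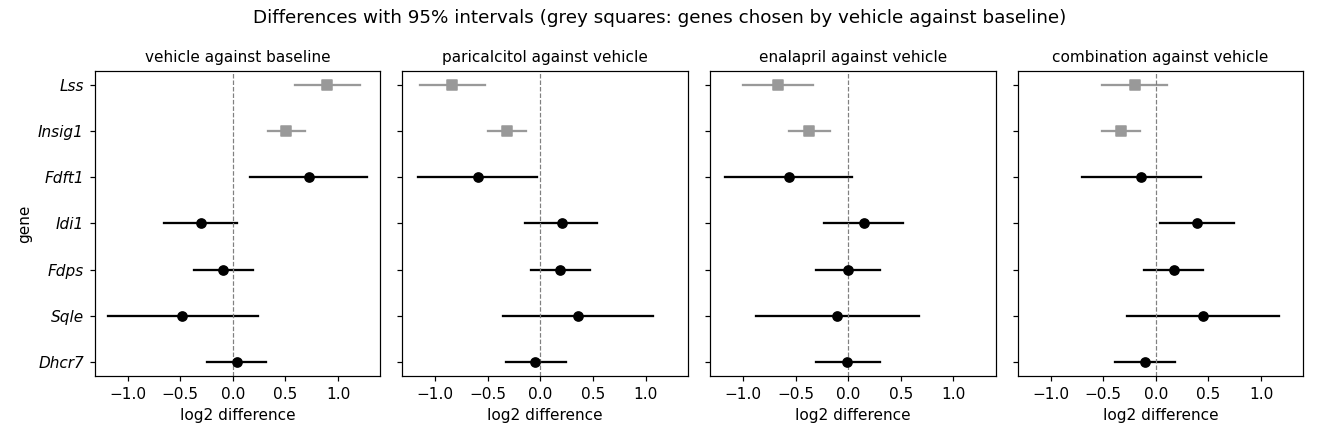
Differences between groups (horizontal axis, log2) with 95% intervals from the limma fit for the 7 measured genes, in 4 comparisons. Grey squares mark Lss and Insig1, which were chosen by vehicle against baseline. All 4 comparisons use vehicle arrays, so the intervals of Lss and Insig1 are no test. In the first panel Lss (0.90), Insig1 (0.51) and Fdft1 (0.72) are to the right of 0, Sqle (-0.48) and Idi1 (-0.30) to the left, and Dhcr7 and Fdps near 0.

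Counted over the 5 other members measured, vehicle against baseline gave 2 higher, 3 lower and 0 called, with a median difference of -0.09 against 0 over all genes. By unadjusted p under 0.05, 1 member was higher and 0 lower. One was higher without overlap (Fdft1) and 2 were lower without overlap (Sqle and Fdps). Paricalcitol against vehicle gave 3 higher and 2 lower (median 0.19), enalapril against vehicle 1 higher and 4 lower (median -0.01), and combination against vehicle 3 higher and 2 lower (median 0.17), with 0 called by limma in each. At an unadjusted p under 0.05 the counts were 1 lower (Fdft1), 0, and 1 higher (Idi1), where the same threshold held 688 genes higher and 683 lower of all 14217 for paricalcitol, 385 and 417 for enalapril, and 597 and 495 for the combination. On deposited values the enalapril count turned to 4 higher and 1 lower (Fdft1). These comparisons share the vehicle arrays. The share of all genes without overlap was 2.55% lower in paricalcitol, 4.33% higher in enalapril and 1.92% lower in the combination, each against vehicle. Against baseline, 0 of the 5 were called in paricalcitol, enalapril or combination rats, where 0.0281%, 0.0141% and 0.162% of all genes were called. For any difference among the 5 groups, limma's F test gave adjusted p values from 0.505 (Fdft1) to 1 (Dhcr7), with 0.127% of all genes called.

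Members were also compared by the order of their group means. For Lss the order from high to low was vehicle, combination, enalapril, paricalcitol, baseline, and for Fdft1 it was the same on the first probe set. There the Fdft1 means of enalapril and paricalcitol differed by 0.03 (pooled SD 0.52). The second Fdft1 probe set did not keep this order, with enalapril (mean 7.59) below baseline (7.77). For Insig1 vehicle led and baseline was last, with the 3 drug groups within 0.05 of each other. Between neighbours in these orders the ranges overlapped, except for Fdft1 between combination and enalapril. For Idi1 and Sqle vehicle lay in the lowest 2 places. The interaction of both drugs, the combination's difference from enalapril minus paricalcitol's difference from vehicle, was 1.31 for Lss and 0.36 for Insig1 (no test), and 1.02 for Fdft1 (SE 0.39, limma's adjusted p 0.615). For Sqle, Idi1, Fdps and Dhcr7 it lay between -0.05 and 0.20 with adjusted p of 0.992 or more, and 0% of all genes were called for the interaction, with 540 higher and 447 lower at an unadjusted p under 0.05.

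The rest of the pathway was read from a list of 28 genes, 23 of them measured. Vehicle against baseline gave 11 higher and 12 lower, 0 called by limma, 1 lower at an unadjusted p under 0.05, and a median of -0.02. Over all genes 47.1% were higher. Paricalcitol against vehicle gave 10 higher and 12 lower (median -0.01), enalapril 11 and 12 (median -0.03) and the combination 15 and 7 (median 0.07), with 0 called in each and 1 gene without a difference in the first and last. At an unadjusted p under 0.05 the counts higher and lower were 2 and 3 for paricalcitol, 0 and 1 for enalapril, and 2 and 1 for the combination, beside the counts over all 14217 genes given above.

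Among the 13 further enzymes measured, 7 were higher and 6 lower in vehicle than in baseline (median 0.03). Those with the smallest p were Ebp, the sterol isomerase, at -0.29 (SE 0.11, limma's adjusted p 0.375), and Sc5d, the desaturase that makes the substrate of Dhcr7, at 0.33 (SE 0.16, adjusted p 0.559). Sc5d had the Lss and Fdft1 order in part: enalapril against vehicle was -0.41 (SE 0.18, limma's adjusted p 0.852, no overlap), and combination against vehicle was 0.00 (SE 0.16, adjusted p 1). Pmvk, phosphomevalonate kinase, named after its values were seen, was likewise low in paricalcitol rats: 0.19 in vehicle against baseline (SE 0.10, limma's adjusted p 0.613), -0.30 in paricalcitol against vehicle (SE 0.10, adjusted p 0.349) and 0.42 in combination against paricalcitol (SE 0.10, adjusted p 0.191). Within groups its r was 0.63 with Insig1 and 0.66 with Fdft1, the highest among the 23 list genes measured. The lowest were -0.45 with Insig1 (Scap) and -0.52 with Fdft1 (Srebf1). Cyp51, which acts directly on the product of Lss, was lower in vehicle by group mean, -0.29 (SE 0.15, limma's adjusted p 0.570). Mvd was near the floor (mean 4.05) and adds nothing.

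In the control machinery (6 of 6 measured) 2 were higher and 4 lower. Srebf2, which encodes SREBP-2, differed by -0.31 in vehicle against baseline (SE 0.33, limma's adjusted p 0.859) and by 0.77 in combination against vehicle (SE 0.33, adjusted p 0.608). Mbtps1, the protease that makes the first cut in SREBP, differed by -0.12 (SE 0.08, adjusted p 0.684), and Insig2, the isoform of Insig1 that is not driven by SREBP, by 0.09 (SE 0.08, adjusted p 0.804). Among uptake and transport genes (4 of 7 measured), Npc2 differed by 0.08 (SE 0.10, limma's adjusted p 0.897) and Scarb1 by -0.22 (SE 0.33, adjusted p 0.927).

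**Figure D3:**
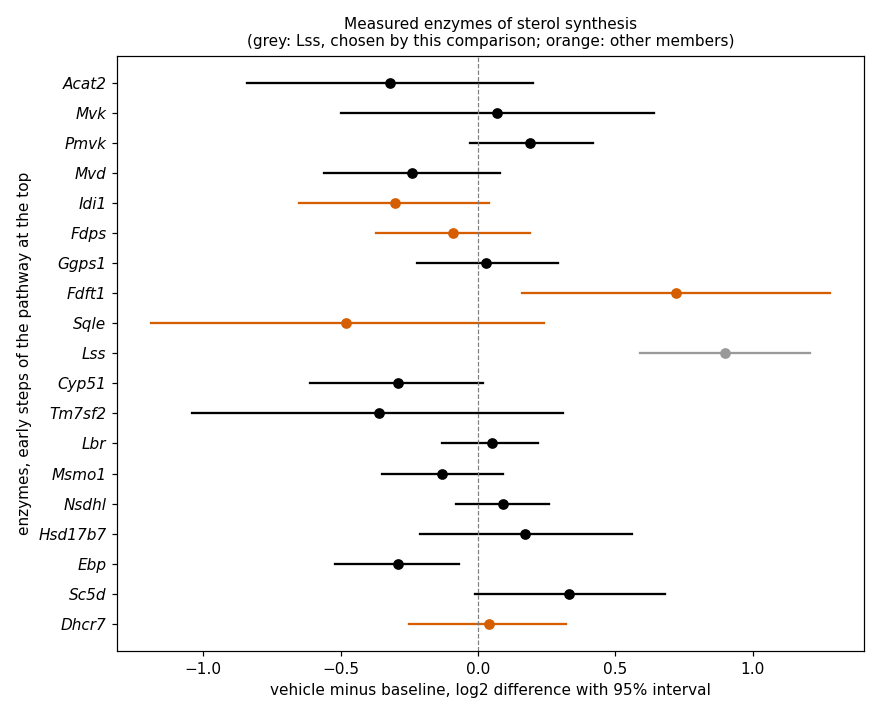
Vehicle minus baseline (horizontal axis, log2) with 95% intervals for the measured enzymes of sterol synthesis, in pathway order from the top. Orange marks Idi1, Fdps, Fdft1, Sqle and Dhcr7. Grey marks Lss, which was chosen by this comparison, so its interval is no test. Fdft1 and Lss stand to the right while Sqle, which acts between them, and Cyp51, which acts after them, stand to the left at -0.48 and -0.29.

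Neighbouring lipid pathways gave no call either. Of 11 fatty acid synthesis genes, 6 were higher and 4 lower in vehicle than in baseline, with 1 higher and 2 lower at an unadjusted p under 0.05, where 590 and 718 of all 14217 genes were. Fads1, a fatty acid desaturase, differed by -0.34 (SE 0.10, limma's adjusted p 0.249), and Acacb, which makes the malonyl-CoA that restrains fat burning, by 0.81 (SE 0.37, adjusted p 0.525). Of 7 genes of cholesterol export and storage 3 were higher and 4 lower, with 0 in either direction at an unadjusted p under 0.05. Apoe differed by -0.37 (SE 0.23, limma's adjusted p 0.682) and Soat1, which esterifies cholesterol, by -0.26 (SE 0.21, adjusted p 0.771).

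Whether members move together from rat to rat was asked on deviations of each array from its own group mean, which the choice of Lss and Insig1 did not use. Of 11 relations of a member with Insig1 or with Lss, 1 passed. Fdft1 and Insig1 had a Pearson r of 0.85 (19 arrays, two-sided permutation within groups p = 0.00056, 0.00616 after Benjamini-Hochberg adjustment over 11). Spearman's rho was 0.80 (permutation p = 0.00219, adjusted 0.0241). Without paricalcitol rats 2 and 4, the extremes of Insig1, r was 0.73. The second Fdft1 probe set gave 0.68. Deviations of paricalcitol and combination rats of equal number were correlated over the 7108 genes with a mean level above the median (0.31 to 0.56). With those rats permuted together by number, the adjusted permutation p for Fdft1 and Insig1 was 0.0176. The pair's r was 0.58 on deposited values (adjusted permutation p 0.161) and 0.70 with each array centred on its median (adjusted permutation p 0.145). The call therefore held with arrays made equal in distribution and was lost under those other scalings.

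For the 10 other relations r lay between -0.33 and 0.13 with an adjusted permutation p of 0.971, and adjusted p values for rho were 0.807 or more. On deposited values Fdps with Insig1 was 0.72 and passed (adjusted permutation p 0.0132), and Idi1 and Sqle with Insig1 turned to 0.53 and 0.42. Lss and Insig1 themselves had an r of -0.07 within groups, although over the levels of all 19 arrays it was 0.61, a value that their choice by the same group difference raises. In Lss the rats that deviated most were combination rats 4 and 3, in Insig1 paricalcitol rats 2 and 4. On these values no common rat-to-rat variation of Lss and Insig1 was detected, while deposited values gave them an r of 0.53.

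**Figure D4:**
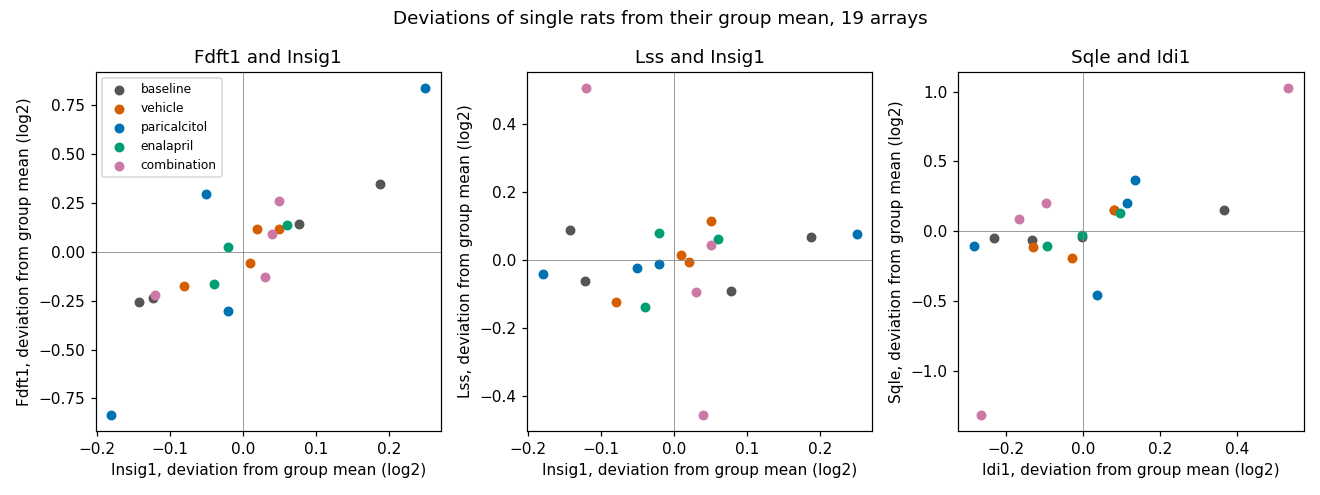
Deviation of each of the 19 arrays from its group mean (log2, both axes), coloured by group, for 3 pairs of genes. Fdft1 rises with Insig1 (r = 0.85), Lss and Insig1 show no common slope (r = -0.07), and the slope of Sqle on Idi1 (r = 0.68) leans on combination rats 1 and 2.

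Sqle, Idi1 and Fdps were the other members that correlated with each other, a set seen only after the values were known and so given without a test. Within groups r was 0.68 for Sqle with Idi1, 0.64 for Idi1 with Fdps and 0.63 for Sqle with Fdps. Many other genes correlated as strongly. Ranked by r with Sqle among 13705 genes, Idi1 was in place 272 and Fdps in place 494. By r with Idi1, Sqle was in place 310 and Fdps in place 477. By r with Fdps, Idi1 was in place 182 and Sqle in place 196. Combination rat 1 was the highest array of all 19 for each of the 3 genes. Without it the values were 0.42, 0.17 and 0.26. Fdft1 had values of -0.45 with Sqle, -0.48 with Idi1 and -0.25 with Fdps.

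These relations moved with an array-wide pattern. The first principal component of the deviations over 7108 brighter genes held 35.3% of their variance, with paricalcitol rats 2 and 4 and combination rats 1 and 2 at its ends. Fdft1 (r = 0.80) and Insig1 (0.58) ran with it, Sqle (-0.73), Idi1 (-0.67) and Fdps (-0.50) against it, and Lss (-0.18) and Dhcr7 (0.00) with neither. With that component held fixed, Fdft1 and Insig1 kept an r of 0.80, while Sqle with Idi1 fell to 0.38, Idi1 with Fdps to 0.47 and Sqle with Fdps to 0.45. Fdft1 turned sign with each of those 3 genes, to 0.33 with Sqle, 0.13 with Idi1 and 0.30 with Fdps. The macrophage marker list (5 of 5 measured, list means from 8.08 to 9.50) had an r of -0.80 with Insig1 and -0.66 with Fdft1. The endothelial list (4 of 5 measured, 9.10 to 9.70) had 0.49 and 0.59. For the cardiomyocyte list the values were 0.44 with Insig1 and 0.43 with Fdft1. For the red cell list (3 of 5 measured) they were -0.24 and -0.52. The part of these cell markers in the relation was not tested.

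**Figure D5:**
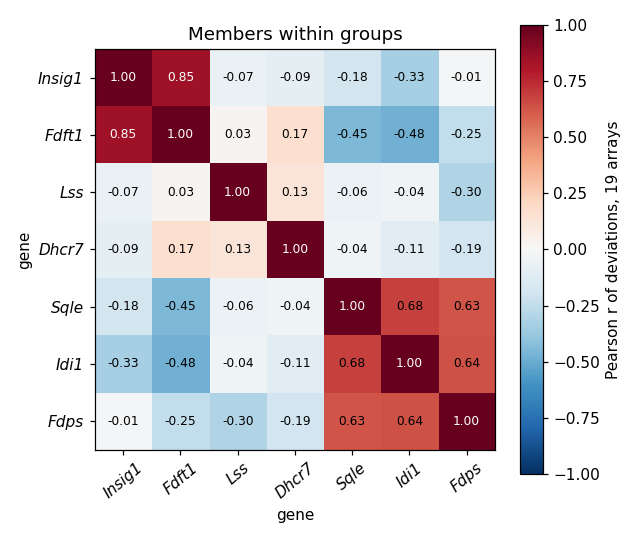
Pearson r between the deviations of the 7 measured genes from their group means, 19 arrays; red is positive and blue negative. Insig1 with Fdft1 (0.85) forms one pair, Sqle, Idi1 and Fdps (0.63 to 0.68) another block, and Lss and Dhcr7 stand apart, with no r beyond 0.30 in size for Lss.

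Ranked by Pearson r over the levels on all 19 arrays among 13705 genes that varied, the genes most like Lss were Gja3 (0.85), Etfrf1 (0.82), Prmt9 (0.81), Pitpnb (0.81) and Mtfr1l (0.80). Insig1 was in place 168 (0.61) and Fdft1 in place 185 (0.60). Dhcr7 came at 5772, Idi1 at 9943, Sqle at 10073 and Fdps at 10856, in the middle and lower parts of the order. The genes most like Insig1 were Kiaa1191 (0.93), Myzap (0.87), Cytl1 (0.83), Sh3bp5 (0.83) and Ccdc186 (0.81). Fdft1 was in place 7 (0.80), Lss in place 150 (0.61), and Idi1 in place 13106 with an r of -0.51. All of these values share the 19 arrays and their group means, and are descriptions.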

How the data were processed

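Biotin-labelled cRNA from 5 ug of left ventricular RNA (integrity number above 9, per the labels' protocols) was measured on Affymetrix rat arrays. The authors deposited a linear intensity for each probe set and array, made with tools not given in the sources used here; values below 0 show that a background was subtracted. Arrays were quantile normalized together, values below 0 set to 0 and log2(value + 16) taken. Of 31099 probe sets, 20826 named 1 gene, 436 several, 9780 none and 57 were controls; each gene kept the probe set with the highest mean. A group-means model over 19 arrays was fitted with limma 3.58.1 (R 4.3.3, eBayes with trend). Correlations used 100000 permutations within groups. The members, lists and tests were chosen with earlier results of these data known. Named by rule were all members, the 2 list genes with the smallest p in vehicle against baseline, Srebf2 and Insig2, and the 5 genes most like Lss and Insig1; Cyp51, Mvd, Pmvk and the marker genes named were chosen after their values were seen. Alternatives covered scaling, pseudocount, probe sets, variance model, replicate block and leaving out each array. The fit was tested on simulated data.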

Additional observations from a re-analysis of the deposited data

Results flagged for a closer look

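In 4 of 28 sets of 4 arrays (7 genes, 4 groups), 1 array lay far from the rest of its group; chance gives about 1 in 20. Insig1 on combination rat 4 was 8.84, with a gap to the next array of 0.91 of the group's range. Sqle on baseline rat 4 was 5.49 (0.88 of the range), and Fdps was 8.95 on baseline rat 4 (0.84) and 9.15 on paricalcitol rat 4 (0.86).

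For Lss, every rat given paricalcitol alone lay below the vehicle mean, and every rat given it with enalapril lay above the mean of enalapril alone. Combination rat 3, at 6.08, lay just above that mean (6.07) and below the enalapril rats at 6.13 and 6.15. The effect of either drug without and with the other differed by 1.31, which was not tested because vehicle arrays chose the gene. For Fdft1 on its first probe set, every rat given enalapril alone lay below the vehicle mean and every rat given both drugs lay above the paricalcitol mean. There the effect of enalapril without and with paricalcitol differed by 1.02, with an adjusted p of 0.615 for the interaction in limma. The second Fdft1 probe set did not keep this pattern. On it combination rats 1 (7.50) and 4 (7.77) lay below the paricalcitol mean (8.03).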

How the results depend on the processing

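The count of called genes was 0 for the other members and for the pathway list in all 4 comparisons with main values, under every alternative run; the smallest adjusted p of a member was 0.122 in vehicle against baseline and paricalcitol against vehicle, 0.341 in enalapril against vehicle and 0.424 in combination against vehicle. Lss and Insig1 kept their sign in those comparisons; their vehicle against baseline differences ran from 0.45 to 1.01 and from 0.28 to 0.57. Leaving out dimmer genes removed Lss, Sqle and Dhcr7. On deposited values the median of all genes lay at -0.20 in vehicle against baseline and 0.17 in enalapril against vehicle. There Dhcr7 turned sign (-0.23 in vehicle against baseline, 0.03 in paricalcitol and 0.20 in enalapril against vehicle), as did Sqle (0.00) and Fdps (0.19) in enalapril against vehicle. Correlations with Insig1 on deposited values were 0.53 for Lss, 0.42 for Sqle, 0.53 for Idi1, 0.72 for Fdps (adjusted permutation p 0.0132) and 0.36 for Dhcr7, and with Lss 0.26 for Sqle, 0.43 for Idi1 and 0.36 for Fdps. Fdft1 with Insig1 lost its call there (0.58) and with arrays centred on their median (0.70). Median centring also turned Dhcr7 in enalapril against vehicle (0.01), Sqle with Insig1 (0.08) and Fdps with Insig1 (0.31); cyclic loess gave 0.00 for Fdps with Insig1, and averaged probe sets -0.01 for Fdft1 with Lss. The cause of these changes was not tested.

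With single arrays left out, Dhcr7 ran from -0.04 to 0.16 in vehicle against baseline, -0.17 to 0.03 in paricalcitol against vehicle and -0.13 to 0.08 in enalapril against vehicle, and Fdps from -0.12 to 0.08 in the last. Correlations with Insig1 ran from -0.19 to 0.27 for Lss, -0.14 to 0.16 for Fdps, -0.24 to 0.02 for Dhcr7 and 0.75 to 0.92 for Fdft1. With Lss they ran from -0.26 to 0.04 for Sqle, -0.28 to 0.10 for Idi1, -0.46 to 0.01 for Fdps, -0.06 to 0.27 for Fdft1 and -0.25 to 0.36 for Dhcr7.

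The labels do not pair rats by replicate number, and of 10 pairs of groups, 1 had a correlation of deviations over 0.1 for every equal number (paricalcitol with combination, 0.31 to 0.56). With the replicate block, vehicle against baseline was 0.72 for Fdft1 (adjusted p 0.232 in limma), Dhcr7 turned to 0.00 in enalapril against vehicle, and 0 members were called. The covariate from the first principal component, the joint permutation by number, the second Fdft1 probe set and the omission of combination rat 1 for Sqle, Idi1 and Fdps were chosen after seeing the data.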
